A study of Bos taurus with 12 samples.

Results

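The coagulation and fibrinolysis genes examined here were 34 genes chosen by name: the clotting factors, the fibrinogen chains, the natural anticoagulants, the plasminogen system, HRG and VTN, and both enzymes that carry the vitamin K cycle. They were read from 12 liver RNA-seq libraries, labelled as 6 per diet, of Holstein heifer calves biopsied at 4 d of age. The dams of the control calves (CON) received a basal close-up diet without added Met over the last 28 d of gestation, and the dams of the other calves (MET) received the same diet plus Met protected from the rumen by ethyl cellulose. The diets were fed to the dams only, and all calves were handled alike after birth. Of 30336 gene IDs in the count files, 33 belonged to the named genes. SERPINA5 was not analysed here, because its ID was not among those counted. Of the 33 genes, 32 entered the comparison of the diets, and TFPI had too few reads for it.

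The liver is the main source of circulating clotting factors. Clotting proceeds through a chain of proteases, each cut from an inactive precursor, which ends with thrombin cutting fibrinogen into fibrin, and plasmin later dissolves the fibrin. Several of these proteases and their inhibitors can bind membranes only after vitamin K-dependent carboxylation, and fibrinogen is a classical acute-phase protein of the hepatocyte.

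Each library held between 8277789 and 10397604 counted reads, so that 3 reads, taken as the limit of detection, correspond to 0.289 to 0.362 CPM, the count scaled to the size of the library. In 2 pairs of libraries, CON replicates 1 and 4 and MET replicates 1 and 3, the counts differed by little more than sampling noise (chi-square per gene of 1.31 and 1.23, against 23.3 to 122 in the other 64 pairs of libraries). Each of these pairs was therefore counted as 1 sample in every mean, which gives 5 samples per diet, and FDR values are given for the test over all 12 libraries and for the test over 10 samples. Fold changes, standard errors and intervals are those over the 12 libraries unless stated otherwise. The labels name no calf for a library, so the 12 libraries may come from only 10 calves, and the standard errors, intervals and FDR values over 12 libraries, which count these pairs as separate, would then be too small. They give the MET libraries 1 first index and the CON libraries another, and the effect of the index and that of the diet cannot be told apart. The 9 hepatocyte markers, such as ALB and TTR, had reads in every library, as did the markers of endothelium, macrophages, stellate cells and bile duct.

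The named genes took a large share of the liver's messages. Together they held 9.88 to 18.2% of the counted reads of a library (median 11.98%), and the 3 fibrinogen chains FGA, FGB and FGG held 6.34 to 14.8% (median 8.74%). By total reads, FGB, FGG and FGA ranked 3, 4 and 5 among all genes, and VTN and PLG ranked 17 and 18. Levels of different genes were compared per length, in TPM, which scales a gene's reads by its exonic length, as means over the 10 samples. FGG stood highest, at 25543 ± 7633 TPM (SD, n = 10), followed by FGB at 20788 ± 5768 TPM and FGA at 14898 ± 4489 TPM. VTN, which encodes the adhesive protein vitronectin, stood at 5784 ± 536 TPM, below the lowest FGA sample. PLG, the precursor of plasmin, stood at 3339 ± 291 TPM, SERPINC1, which encodes antithrombin, at 3009 ± 308 TPM, and F2, the precursor of thrombin, at 2939 ± 179 TPM. These last 3 genes overlapped in their samples, so that their order is not fixed beyond the spread. In all, 12 of the 33 genes exceeded 1000 TPM.

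The remaining liver-made factors followed without a clear break. HRG had 653 TPM, PROC 619, CPB2 591, PROS1 447 and F9 417 TPM. Lower in the order stood F5 at 215, F7 at 195, KLKB1 at 191, F11 at 173, PROZ at 161 and F12 at 96.6 TPM. Of the 32 steps between neighbouring genes in this order, 3 separated genes whose samples did not overlap. One of them was a drop of 7.07-fold, between GGCX at 57.4 TPM and PLAT at 8.12 TPM. Below it lay 6 genes that are made largely outside the hepatocyte: PLAT and PLAU, the plasminogen activators, F8, a product of endothelium, F3, the tissue factor, F13A1, a product of macrophages and megakaryocytes, and TFPI, the inhibitor of tissue factor.

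**Figure D1:**
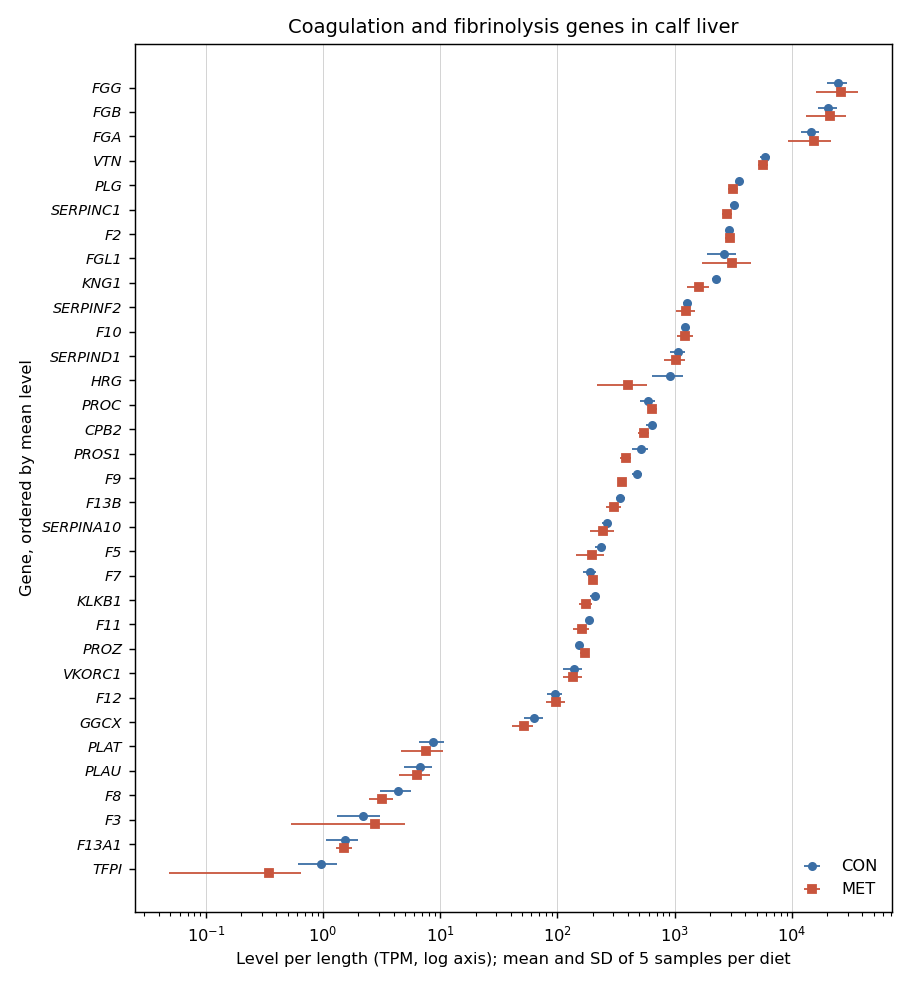
Level per length of the 33 counted genes in TPM on a log axis, as mean and SD of 5 CON samples (circles) and 5 MET samples (squares), in order of the mean over all 10 samples. The 3 fibrinogen chains stand at the top, a drop of 7.07-fold separates GGCX from PLAT, and HRG stands lower in MET. TFPI rests on 0 to 7 reads per library.

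Most of these genes had a small estimated difference between the diets. Calls depended on the fit: HRG in edgeR over 12 libraries, none in edgeR over 10 samples, and HRG and F9 in DESeq2 over 10 samples. In edgeR's quasi-likelihood test over the 12 libraries (Benjamini-Hochberg FDR at most 0.10 over all 13212 tested genes), HRG was lower in MET calves and no named gene was higher, that is 1 and 0 of 32, where 2.32% of all tested genes were called lower and 2.09% higher. Of the 32 genes, 14 had a log2 fold change (MET over CON) above 0 and 18 below 0, and in 31 it was smaller than 0.5 in size. The 95% intervals of some of these, such as FGA, FGL1 and F3, reached beyond 0.5. The median log2 fold change was −0.01 for the named genes and −0.00 for all tested genes, and 56.3% of the named genes lay below 0 against 50.4% of all genes. The median standard error of a log2 fold change was 0.15 for the named genes and 0.17 for all genes.

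Over the 10 samples the same test called 0 of the 32 genes, and 0.0% of the 13242 genes tested, where the lowest FDR was 0.156 and 2165 genes passed an unadjusted p of 0.05. At that unadjusted limit 3 named genes were lower in MET (HRG, F9 and KNG1) and 0 were higher, against 8.52% and 7.83% of all genes. DESeq2 over the 10 samples called HRG and F9 lower and no named gene higher, against 2.98% and 2.74% of the genes with an adjusted p. HRG and F9 were also the 2 named genes whose CON and MET samples did not overlap, both lower in MET, against 1.78% of all genes that separated in that direction and 1.96% in the other. As shares of the 32 genes, these counts are 3.13% for edgeR over the 12 libraries, 9.38% for the unadjusted limit, and 6.25% for the samples that did not overlap. For DESeq2, which gave F3 no adjusted p, the share is 6.45% of 31 genes.

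**Figure D2:**
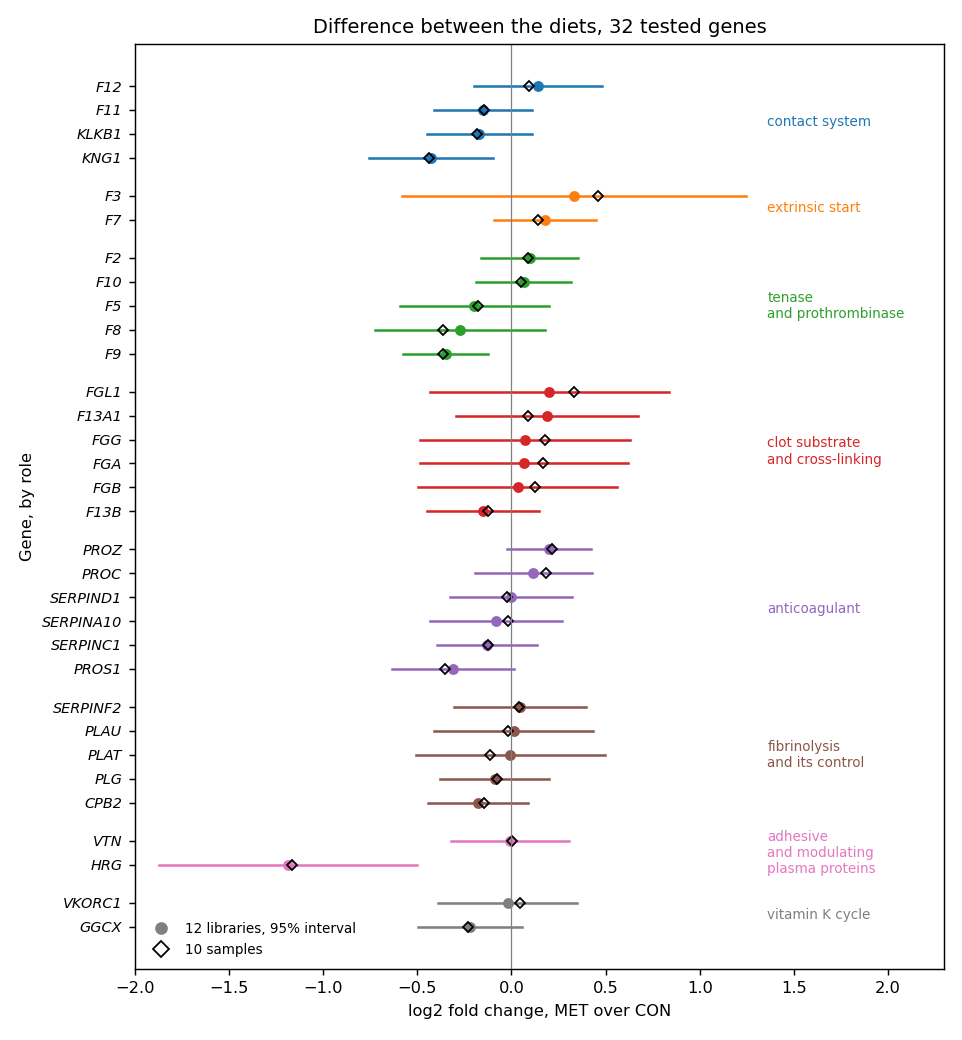
Log2 fold change (MET over CON) of the 32 tested genes, by role. Filled circles and lines give the estimate and 95% interval over 12 libraries, open diamonds the estimate over 10 samples. HRG lies at −1.19, all other genes lie within 0.5 of 0, and the intervals of HRG, F9 and KNG1 leave out 0. Those intervals count the near-identical libraries as separate. Over 10 samples these 3 genes passed an unadjusted p of 0.05 in edgeR, 9.38% of 32 against 8.52% of all genes lower in MET.

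HRG encodes histidine-rich glycoprotein, a plasma protein that binds heparin, plasminogen and fibrinogen. Its level was 1272 CPM in the averaged CON replicates 1 and 4, and 928, 582, 612 and 793 CPM in CON replicates 2, 3, 5 and 6. It was 528 CPM in the averaged MET replicates 1 and 3, and 335, 117, 384 and 504 CPM in MET replicates 2, 4, 5 and 6. Every MET sample lay below every CON sample, with MET replicate 4 far below the others. The means were 837 ± 281 CPM in CON and 374 ± 165 CPM in MET (SD, n = 5 each). The fitted log2 fold change was −1.19 (SE 0.32, 95% interval −1.87 to −0.50), or 2.28-fold lower, with an FDR of 0.083 in edgeR over 12 libraries. Over 10 samples the log2 fold change was −1.16, with an FDR of 0.183 in edgeR and 0.037 in DESeq2. The exact two-sided permutation test over 10 samples gave p = 0.00794, the smallest value that 5 samples against 5 allow. Any gene whose samples do not overlap gets this value, so it restates the separation. Without MET replicate 4 the log2 fold change was −0.996 (edgeR FDR 0.082), and without CON replicate 1 or 4, the pair with the highest level, it was −1.07 and −1.06 (edgeR FDR 0.146 and 0.154). Each of these last fits kept the other library of the pair, so no fit left out the highest CON sample.

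Hepatocyte markers are given beside this result. ALB, the gene for albumin, averaged 62223 ± 13404 CPM in CON and 39451 ± 8761 CPM in MET (SD, n = 5 each), a log2 fold change of −0.65 with an FDR in edgeR of 0.107 over 12 libraries and 0.238 over 10 samples. In DESeq2 the FDR of ALB was 0.011 over 12 libraries and 0.048 over 10 samples, so that DESeq2 called it lower. The summed level of the 9 hepatocyte markers ranged from 102140 to 155128 CPM in CON and from 87323 to 125543 CPM in MET. Of these 9 markers 7 had a log2 fold change below 0, where 50.4% of all tested genes did. The markers called lower were APOB in edgeR over 12 libraries (1 of 9, against 2.32% of all genes), 0 in edgeR over 10 samples, and APOB and ALB in DESeq2 over 10 samples (2 of 9, against 2.98%). Their part in the HRG result was not tested, and in bulk liver fewer cells of a type and less RNA per cell cannot be told apart.

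HRG lies on chromosome 1 of the UMD 3.1.1 assembly, from 81127286 to 81135756 on the minus strand, in a run of genes for cystatin-type plasma proteins. KNG1 lies 6165 bases before it (81097299 to 81121120), FETUB 15448 bases after it (81151205 to 81166512), and AHSG 35626 bases beyond FETUB (81202139 to 81209052), all on the same strand and with no other annotated gene between them. FETUB encodes fetuin-B, an inhibitor of metalloproteases, and AHSG encodes fetuin-A, a carrier of calcium and phosphate. FETUB averaged 323 ± 164 CPM in CON and 151 ± 107 CPM in MET (SD, n = 5 each), a log2 fold change of −1.08 with an FDR in edgeR of 0.216 over 12 libraries and 0.326 over 10 samples. The FETUB samples overlapped, since CON replicate 3 had 97.1 CPM while MET replicate 6 had 273 CPM. AHSG averaged 10138 ± 2184 CPM in CON and 8329 ± 1600 CPM in MET (SD, n = 5 each), with a log2 fold change of −0.29 and an FDR in edgeR of 0.356 over 12 libraries and 0.529 over 10 samples. Neither neighbour passed the test.

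With the mean of each diet removed, HRG and KNG1 varied together over the 10 samples (Pearson r = 0.88, permutation p = 0.00088; Spearman rho = 0.90, permutation p = 0.0008). Without the 2 samples farthest from the HRG median, CON replicate 3 and MET replicate 4, r was 0.68. HRG and FETUB had r = 0.72 (permutation p = 0.013) and rho = 0.77 (permutation p = 0.012), and r = 0.63 without those samples. HRG and AHSG had r = 0.67 (permutation p = 0.025) and rho = 0.70 (permutation p = 0.030), and r = 0.61 without them. These pairs were chosen after the values had been seen, as 3 of 5 added pairs, and their Benjamini-Hochberg adjusted p over the 5 were 0.0022, 0.022 and 0.031 for r and 0.0040, 0.020 and 0.038 for rho. The samples of a pair share their library and its composition.

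**Figure D3:**
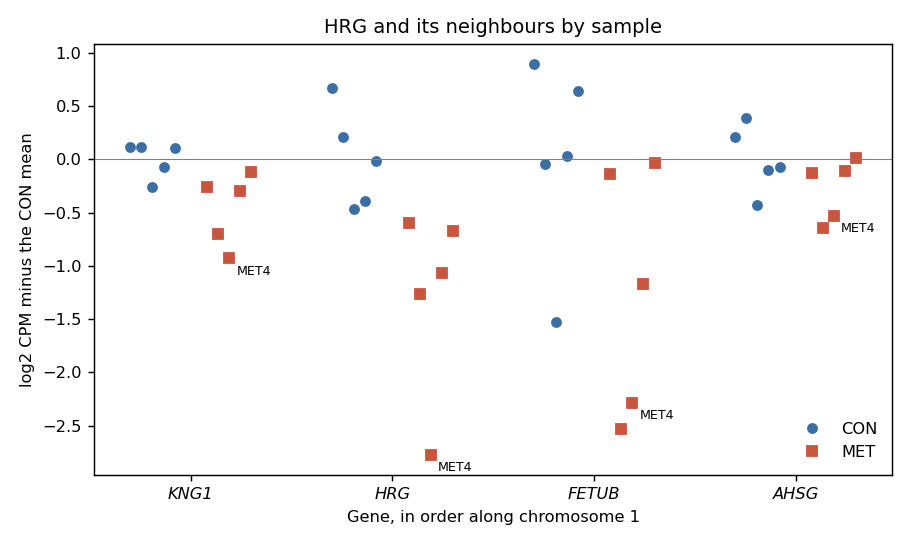
Log2 CPM minus the CON mean for KNG1, HRG, FETUB and AHSG, in their order along chromosome 1, with 5 CON samples (circles) and 5 MET samples (squares). Only for HRG do all MET points lie below all CON points, and MET replicate 4 is lowest in KNG1 and HRG.

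Of the 4 contact system genes, 3 had a log2 fold change below 0 and 1 above 0, and none passed the test. KNG1 encodes kininogen, the cofactor of the contact system and the precursor of bradykinin. It had 4645 CPM in the averaged CON replicates 1 and 4, and 4627, 3563, 4071 and 4610 CPM in CON replicates 2, 3, 5 and 6. In MET it had 3566 CPM in averaged replicates 1 and 3, and 2641, 2244, 3488 and 3951 CPM in replicates 2, 4, 5 and 6. The diets overlapped, because CON replicate 3 lay below MET replicate 6 and just below the averaged MET pair, while 3 MET samples lay below every CON sample. The log2 fold change was −0.43 (SE 0.15, 95% interval −0.76 to −0.10), with an FDR of 0.148 over 12 libraries and 0.282 over 10 samples in edgeR, and 0.140 over 10 samples in DESeq2. The exact permutation p over 10 samples was 0.0238. DESeq2 over the 12 libraries, which counts the near-identical libraries as separate, gave KNG1 an FDR of 0.055. The zymogens of this system differed less, with log2 fold changes of −0.17 for KLKB1 (plasma prekallikrein), −0.15 for F11 and 0.14 for F12. KLKB1 and F11 are neighbours on chromosome 27, 4155 bases apart.

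Tissue factor and its partner start clotting after injury, and neither was called. F7 had a log2 fold change of 0.18 (95% interval −0.09 to 0.45; edgeR FDR 0.444 over 12 libraries and 0.658 over 10 samples). F3 was counted with 12 to 78 reads per library, with means of 2.32 ± 0.775 CPM in CON and 3.24 ± 2.75 CPM in MET (SD, n = 5 each) and a log2 fold change of 0.33 (95% interval −0.58 to 1.25; edgeR FDR 0.697 over 12 libraries and 0.657 over 10 samples). The F3 estimate rested on MET replicate 6, which had 8.04 CPM where the other MET samples had 1.46 to 3.02 CPM, and without that replicate it was −0.28.

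The factors that generate factor Xa and thrombin comprised 5 genes, 2 above 0 and 3 below 0, none called in edgeR over 12 libraries. F9, the vitamin K-dependent protease of the intrinsic tenase that is missing in haemophilia B, had 735 CPM in the averaged CON replicates 1 and 4, and 834, 777, 844 and 700 CPM in CON replicates 2, 3, 5 and 6. It had 613 CPM in the averaged MET replicates 1 and 3, and 521, 669, 668 and 550 CPM in MET replicates 2, 4, 5 and 6. All 5 MET samples lay below the lowest CON sample, and F9 had the smallest spread within a diet of all 33 genes, with a coefficient of variation of 9.40%. The means were 778 ± 62.05 CPM in CON and 604 ± 67.8 CPM in MET (SD, n = 5 each). The log2 fold change was −0.35 (SE 0.11, 95% interval −0.57 to −0.12), or 1.27-fold lower, with an FDR of 0.104 in edgeR over 12 libraries, which missed the threshold of 0.10. Over 10 samples the FDR was 0.217 in edgeR and 0.045 in DESeq2, and the exact permutation p was 0.00794, the value of any gene without overlap. Leaving out 1 library at a time gave log2 fold changes from −0.38 to −0.31 and 0 calls in 12 fits by edgeR.

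The samples of the F9 partners overlapped between the diets. F2 averaged 3575 ± 332 CPM in CON and 3806 ± 444 CPM in MET (SD, n = 5 each), a log2 fold change of 0.10 (95% interval −0.16 to 0.35; edgeR FDR 0.688 over 12 libraries and 0.805 over 10 samples). F10 had a log2 fold change of 0.07, F5 of −0.20 and F8, the cofactor of F9, of −0.28 (SE 0.21). Over the 10 samples that of F8 was −0.364 (SE 0.228, edgeR FDR 0.447), beside −0.365 (SE 0.129) for F9. The summed level of 8 endothelial markers, the cell type that makes F8, ranged from 361 to 569 CPM in CON and from 323 to 557 CPM in MET. The 7 vitamin K-dependent proteins of the list (F2, F7, F9, F10, PROC, PROS1 and PROZ) divided into 5 above 0 and 2 below 0. GGCX, the carboxylase that modifies all of them, averaged 79.8 ± 9.08 CPM in CON and 68.0 ± 14.1 CPM in MET (SD, n = 5 each), with a log2 fold change of −0.22 (95% interval −0.49 to 0.06; edgeR FDR 0.352 over 12 libraries and 0.466 over 10 samples). Of its MET samples 4 of 5 lay below every CON sample, and MET replicate 5, at 88.8 CPM, lay within the CON range. VKORC1, which recycles vitamin K, had a log2 fold change of −0.02.

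**Figure D4:**
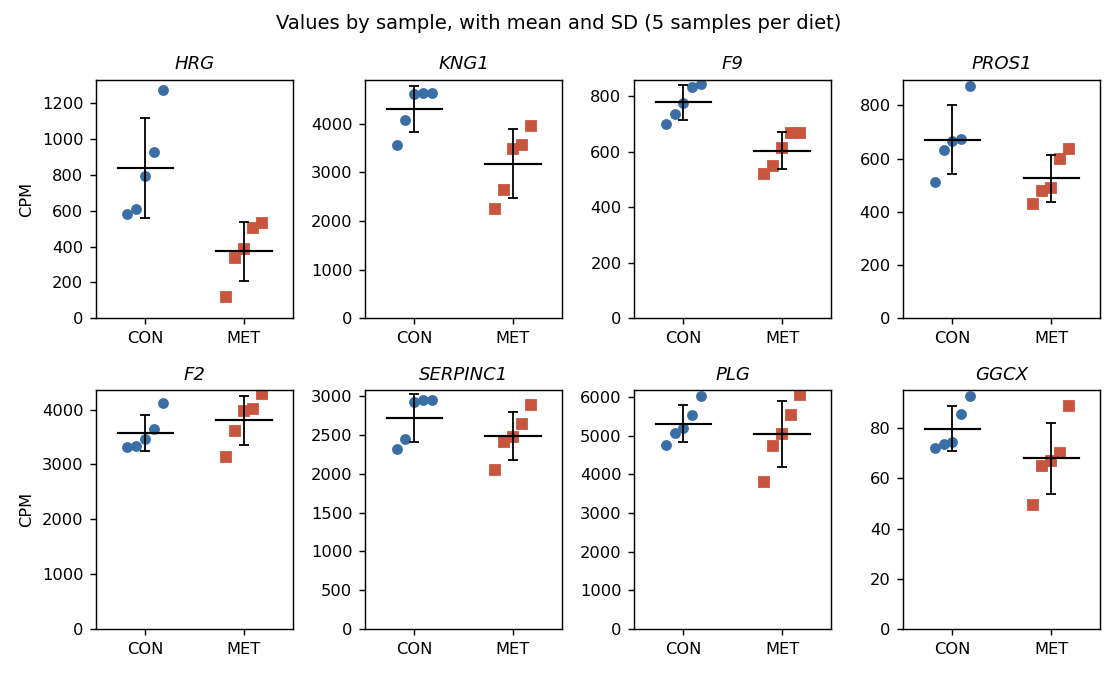
CPM of 8 genes in the 5 CON samples (circles) and 5 MET samples (squares), each panel sorted within a diet and starting at 0, with the mean (long line) and SD (error bar). HRG and F9 do not overlap between the diets, and the other genes shown overlap.

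The fibrinogen chains varied more between calves than between the diets. Their summed level was 96025 CPM in the averaged CON replicates 1 and 4, and 103190, 96787, 61584 and 76516 CPM in CON replicates 2, 3, 5 and 6. It was 67379 CPM in the averaged MET replicates 1 and 3, and 72592, 112789, 165332 and 64893 CPM in MET replicates 2, 4, 5 and 6. MET replicate 5 stood highest and MET replicate 4 next, while CON replicate 5 stood lowest, so that the CON range lay within the MET range except at its lower end. FGA averaged 24526 ± 5195 CPM in CON and 27525 ± 12830 CPM in MET (SD, n = 5 each), with a log2 fold change of 0.06 (95% interval −0.49 to 0.62; edgeR FDR 0.917 over 12 libraries and 0.823 over 10 samples). FGB had a log2 fold change of 0.03 (95% interval −0.50 to 0.56) and FGG of 0.07 (95% interval −0.49 to 0.63), and over 10 samples their edgeR FDR was 0.867 and 0.809. Without MET replicate 5 these were −0.21 for FGA, −0.21 for FGB and −0.18 for FGG.

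The 3 chains, which assemble into 1 protein in equal number, varied together across calves. With diet means removed, Pearson r was 0.986 for FGA and FGB, 0.992 for FGA and FGG and 0.992 for FGB and FGG over 10 samples (permutation p at most 2e-05), with Spearman rho of 0.964, 0.976 and 0.988 (permutation p of 7e-05, 6e-05 and 1e-05, the last being the smallest that 100000 resamples give). Adjusted over the 3 pairs, the Benjamini-Hochberg p was at most 2e-05 for r and 7e-05 for rho. Without the 2 samples farthest from the median, r was 0.968, 0.990 and 0.992. Per length, FGB stood 1.30 to 1.502 times and FGG 1.65 to 1.87 times above FGA in every sample. The genes lie together on chromosome 17, FGG from 2822904 to 2830961 and FGA from 2842921 to 2851046 on the plus strand and FGB from 2875549 to 2884552 on the minus strand.

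FGL1, a hepatocyte protein related to fibrinogen that is itself induced in the acute phase, had 1554 to 3128 CPM in CON (median 2617 CPM) and 1657 to 5237 CPM in MET (median 2393 CPM). Its 2 highest samples were MET replicates 5 and 4, as for fibrinogen. FGL1 and FGG had r = 0.91 (permutation p = 0.00067, adjusted over the 5 added pairs 0.0022) and rho = 0.79 (permutation p = 0.0084, adjusted 0.020), and r = 0.89 without the 2 samples farthest from the FGG median. The fifth added pair, FGG and HRG, had r = −0.25 (permutation p = 0.494) and rho = −0.22 (permutation p = 0.540), with r = −0.58 without the 2 samples farthest from the FGG median and r of 0.47 within CON and −0.47 within MET (n = 5 each, a description). The log2 fold change of FGL1 was 0.20 (95% interval −0.43 to 0.83; edgeR FDR 0.741 over 12 libraries and 0.643 over 10 samples), and −0.07 without MET replicate 5. F13B, the carrier subunit of the enzyme that cross-links fibrin, had a log2 fold change of −0.15. The catalytic subunit F13A1 stood at 3.26 ± 0.969 CPM in CON and 3.41 ± 0.557 CPM in MET (SD, n = 5 each). The summed level of 8 macrophage markers, a cell type that makes F13A1, ranged from 1367 to 1823 CPM in CON and from 1623 to 2155 CPM in MET, and all 8 had a log2 fold change above 0, where 50.4% of all tested genes lay below 0. C1QB and C1QC were called higher in edgeR over 12 libraries (2 of 8, against 2.09% of all genes) and in DESeq2 over 10 samples (2 of 8, against 2.74%), and none in edgeR over 10 samples.

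**Figure D5:**
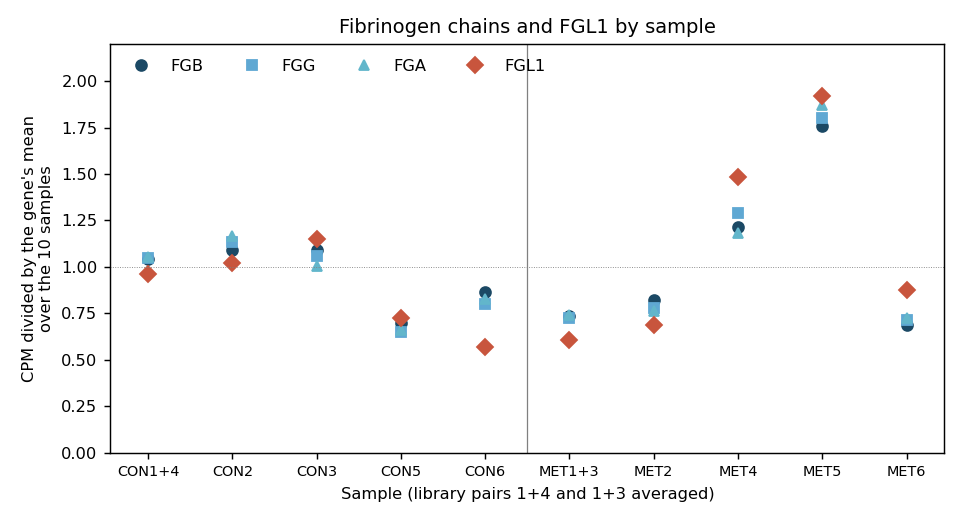
CPM of FGA, FGB, FGG and FGL1 in each of the 10 samples, divided by the mean of the gene over the 10 samples. The chains move together, and MET replicate 5 stands highest and MET replicate 4 next.

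The anticoagulants showed no called difference, with 2 of 6 tested genes above 0 and 4 below 0. SERPINC1, whose product antithrombin blocks thrombin and factor Xa, averaged 2715 ± 310 CPM in CON and 2491 ± 310 CPM in MET (SD, n = 5 each), a log2 fold change of −0.13 (95% interval −0.40 to 0.14; edgeR FDR 0.587 over 12 libraries and 0.721 over 10 samples). PROS1, the cofactor of activated protein C, had the largest difference of this role, with 671 ± 131 CPM in CON and 525 ± 87.7 CPM in MET (SD, n = 5 each). Its log2 fold change was −0.31 (95% interval −0.64 to 0.01; edgeR FDR 0.259 over 12 libraries and 0.324 over 10 samples), and 3 of 5 MET samples lay below every CON sample. The same held for F13B and SERPINA10, while 2 MET samples of SERPINA10 lay above every CON sample. For such partial separation, also given for KNG1 and GGCX, the share of all genes was not computed. PROC, the protease that PROS1 serves, had a log2 fold change of 0.12, and PROZ, the cofactor of SERPINA10, of 0.20 (edgeR FDR 0.293 over 12 libraries and 0.410 over 10 samples). SERPINA10 (−0.08) and SERPIND1, heparin cofactor II (−0.00), lay close to 0 on the log2 scale. F7, F10 and PROZ lie in a row on chromosome 12, 2336 and 962 bases apart, and their log2 fold changes were 0.18, 0.07 and 0.20. TFPI had 0 to 7 reads per library, 31 in the CON and 11 in the MET libraries, around the 3-read limit of detection, so that no fold change is given.

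Fibrinolysis genes divided into 2 above 0 and 3 below 0, and none was called. PLG averaged 5310 ± 484 CPM in CON and 5028 ± 853 CPM in MET (SD, n = 5 each), a log2 fold change of −0.09 (95% interval −0.38 to 0.20; edgeR FDR 0.750 over 12 libraries and 0.853 over 10 samples). CPB2, a carboxypeptidase that slows clot lysis, averaged 521 ± 32.1 CPM in CON and 472 ± 89.0 CPM in MET (SD, n = 5 each), with a log2 fold change of −0.18 (edgeR FDR 0.444 over 12 libraries and 0.669 over 10 samples). SERPINF2, the inhibitor of plasmin, had a log2 fold change of 0.05. The activators PLAT and PLAU had log2 fold changes of −0.01 and 0.01. VTN, which also stabilises the activator inhibitor PAI-1, had 5250 ± 907 CPM in CON and 5259 ± 715 CPM in MET (SD, n = 5 each), a log2 fold change of −0.01.

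The exact permutation test was run on 14 of the named genes. Beside HRG, F9 and KNG1, the p-values over 10 samples were 0.0556 for PROS1 and 0.135 for GGCX, and for CPB2, F2, F3, FGA, FGB, FGG, FGL1, PLG and SERPINC1 they ran from 0.286 for SERPINC1 to 0.841 for FGB. These p-values are not adjusted, and the adjusted values are those of the fits across all genes.

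A further 38 genes of the pathway, such as receptors, plasma protease inhibitors and secretion factors, held 35 tested genes, with 20 log2 fold changes above 0 and 15 below 0. No gene of this list was called by edgeR over the 12 libraries or the 10 samples, or by DESeq2 over the 10 samples. Over the 10 samples and without adjustment, 2 of the 35 had p under 0.05 above 0 (HGFAC and CPN1) and 2 below 0 (F2R and FURIN). This is 5.71% in each direction, under the 7.83% and 8.52% of all genes, and the values of these 4 genes are given as a description. HGFAC, a protease related to factor XII that activates hepatocyte growth factor, averaged 137 ± 22.5 CPM in CON and 179 ± 31.3 CPM in MET, and CPN1, a carboxypeptidase that inactivates kinins, averaged 76.0 ± 18.4 and 119 ± 55.8 CPM (SD, n = 5 each). F2R, a receptor for thrombin, averaged 8.49 ± 2.48 CPM in CON and 5.98 ± 1.10 CPM in MET, and FURIN, a convertase that trims the propeptides of clotting factors, averaged 84.4 ± 5.87 and 61.1 ± 18.6 CPM (SD, n = 5 each). The edgeR FDR of these 4 genes was 0.163, 0.186, 0.149 and 0.242 over the 12 libraries, and 0.257, 0.290, 0.266 and 0.269 over the 10 samples.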

How the data were processed

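RNA-seq of calf liver was quantified by the authors as raw counts of reads per gene. Per the file headers and the submitters' processing notes, reads from a stranded library (1 lane, single end) were aligned with STAR 2.5.3a and counted with featureCounts 1.5.2 (strand option 2) on the UMD 3.1.1 RefSeq annotation; the deposited counts were not normalized. Here 25105 of 30336 gene IDs were named from a RefSeq table of a later assembly (names only), and positions come from the file headers. Counts were fitted with edgeR 4.0.16 (R 4.3.3; TMM, filterByExpr defaults, quasi-likelihood test, diet only, FDR at most 0.10), over 12 libraries and over 10 samples in which near-identical library pairs were summed. Means use the pairs averaged. TPM divides counts by exonic length. The exact permutation test used log2 CPM with a prior count of 2. Full values are given for genes called over the 12 libraries, genes without overlap, the largest difference of each role, and FGA, FGB, FGG, F2, PLG and SERPINC1. The exceptions FETUB, AHSG and the added correlation pairs were chosen after their values were seen. Members and lists were chosen with earlier results of these data known, among them the lower HRG level in MET, which is not independent evidence here. DESeq2 1.42.0, other scalings, no filter, a length correction, a replicate block and each library left out were alternatives. Scripts were tested on simulated data. P-values measure only the spread between these samples, and limits of detection cover counting error only.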

Additional observations from a re-analysis of the deposited data

Results flagged for a closer look

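In 5 of 64 groups of 5 samples, 1 sample stood apart from the other 4 of its diet by Dixon's test at the 95% level, where chance alone flags about 1 in 20 groups, or 3.2. MET replicate 6 had 8.04 CPM of F3 against 1.46 to 3.02 CPM in the other MET samples. CON replicate 2 had 527 CPM of F13B against 377 to 402 CPM, and 321 CPM of PROZ against 243 to 259 CPM, in the other CON samples. MET replicate 4 had 5.30 CPM of PLAU against 10.6 to 11.9 CPM, and MET replicate 2 had 4006 CPM of VTN against 5376 to 5783 CPM, in the other MET samples.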

How the results depend on the processing

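The number of coagulation and fibrinolysis genes called lower was 1 over the 12 libraries. It was 0 over the 10 samples, with 1 library of each near-identical pair (added after seeing the data), with a replicate block and with no filter on low counts, 3 with DESeq2 over the 12 libraries and 2 with DESeq2 over the 10 samples. It ranged from 0 to 1 when each library was left out, and HRG was called without CON replicate 3, CON replicate 5, MET replicate 3 or MET replicate 4 and in none of the other 8 such fits. Over the other 9 alternatives, the HRG log2 fold change ran from −1.23 to −1.16 (FDR 0.0092 to 0.187), that of F9 from −0.37 to −0.32 (FDR 0.0073 to 0.226) and that of KNG1 from −0.45 to −0.38 (FDR 0.055 to 0.282). Of all tested genes, 307 were called lower and 276 higher over the 12 libraries; the counts were 681 and 633 with DESeq2, 333 and 306 with DESeq2 over the 10 samples, 164 and 210 without the 10 most counted genes in the library size, 116 and 122 with no filter, 119 and 126 with the length trend removed, 6 and 0 with the replicate block, and 0 and 0 over the 10 samples or with 1 library of each pair. With each library left out they ranged from 15 to 292 and from 11 to 273, the lowest without CON replicate 1. Same-numbered samples did not deviate together (correlations of −0.19 to 0.15), so the numbers share only a label, and under the block the HRG log2 fold change was −1.22 (FDR 0.187). The cause of these changes was not tested, beyond the fewer samples that a left-out or averaged library leaves.

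Signs turned only in genes that passed no test. With the replicate block FGA was at −0.030, FGB at −0.055 and FGG at −0.020. PLAU was at −0.019 over the 10 samples in edgeR, −0.017 in DESeq2, −0.0047 with the block and −0.086 with 1 library of each pair. VTN was at 0.0022 without the most counted genes, 0.00070 with no filter, and 0.0018 and 0.0040 over the 10 samples in edgeR and DESeq2. SERPIND1 was at 0.012 without the most counted genes, 0.0067 with no filter and 0.022 with the length trend removed. PLAT was at 0.0032 with no filter and 0.0079 with the length trend removed, where SERPINA10 was at 0.027. VKORC1 was at 0.047 and 0.048 over the 10 samples in edgeR and DESeq2 and 0.059 with 1 library of each pair. With each library left out the range crossed 0 for F3 (−0.28 to 0.49), F10 (−0.0096 to 0.11), FGA (−0.21 to 0.14), FGB (−0.21 to 0.12), FGG (−0.18 to 0.15), FGL1 (−0.072 to 0.32), SERPIND1 (−0.090 to 0.057), PLAT (−0.13 to 0.13), PLAU (−0.054 to 0.14), SERPINF2 (−0.025 to 0.15), VTN (−0.074 to 0.060) and VKORC1 (−0.14 to 0.058). TFPI, with 0 to 7 reads per library, lay around the 3-read limit and was not tested.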
